A study of Mus musculus with 12 samples.

Results

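Tumor necrosis factor (Tnf), the lymphotoxins Lta and Ltb, both receptors of TNF (Tnfrsf1a and Tnfrsf1b) and the death receptor Fas were followed in dendritic cells grown from mouse bone marrow, with and without LPS and with and without the gene Arc. A probe set stood for a gene where the platform annotation gave it exactly 1 gene symbol. Each of these 6 genes had 1 such probe set, and the 6 are among 22180 genes that were measured in this way.

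Bone marrow of 8-week-old C57BL/6 mice, wildtype (Arc/Arg3.1 +/+) or knockout (Arc/Arg3.1 –/–), was cultured in medium with 20 ng/ml of GM-CSF, and semi-adherent cells were harvested on day 7. LPS (100 ng/ml) or medium alone was applied for 30 min and washed off, and RNA was taken after 1 h more in medium. The 4 groups are untreated wildtype, LPS-treated wildtype, untreated knockout and LPS-treated knockout, with 3 whole-transcript arrays each (12 in all). The arrays are labelled as biological replicates, but whether each culture had its own mouse is not stated. The p-values thus measure the spread between cultures, which may be in part technical. In LPS-treated wildtype and both knockout groups, sex-linked signal differed between arrays (below), so each held cells of more than 1 mouse. The labels name no promoter or Cre and no cell type to which the loss of Arc was limited, and GM-CSF cultures of this kind can hold other myeloid cells.

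TNF is made as a membrane protein and released by the protease ADAM17. It binds TNF receptor 1, found on most cells, which builds a complex that turns on NF-kB or, in another form, a death pathway through caspase-8, and TNF receptor 2, found mainly on immune cells, which has no death domain. Lymphotoxin alpha is secreted as a trimer that binds both TNF receptors, or is held at the membrane by lymphotoxin beta, whose trimers signal through the lymphotoxin beta receptor in the formation of lymph nodes. Fas is bound by Fas ligand and starts caspase-8 through its death domain. In dendritic cells, LPS acts on Toll-like receptor 4, and Tnf is among the earliest genes that NF-kB turns on there.

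Tnf, Lta and Ltb lie side by side on mouse chromosome 17, and the bases before their starts are shown because these neighbours gave very different LPS values. The windows are from RefSeq on build GRCm38.p6, hold the 250 bases before the start of each gene, and are given 5′ to 3′ on the strand of the gene. They span chr17:35202008-35202257 for Tnf (minus strand), chr17:35205352-35205601 for Lta (minus strand) and chr17:35194257-35194506 for Ltb (plus strand). Capitals mark matches to the NF-kB letters (GGG, any 5 bases, CC) on either strand, with overlapping matches run together.
Tnf: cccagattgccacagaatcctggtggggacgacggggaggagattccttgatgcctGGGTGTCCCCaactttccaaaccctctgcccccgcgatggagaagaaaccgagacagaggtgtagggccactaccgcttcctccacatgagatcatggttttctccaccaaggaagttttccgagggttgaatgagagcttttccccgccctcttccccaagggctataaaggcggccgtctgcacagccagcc
Lta: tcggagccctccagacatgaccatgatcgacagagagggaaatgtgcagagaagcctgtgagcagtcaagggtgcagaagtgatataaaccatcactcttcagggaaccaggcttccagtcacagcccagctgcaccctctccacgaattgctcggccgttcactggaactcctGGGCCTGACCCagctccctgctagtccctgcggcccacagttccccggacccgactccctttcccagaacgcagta
Ltb: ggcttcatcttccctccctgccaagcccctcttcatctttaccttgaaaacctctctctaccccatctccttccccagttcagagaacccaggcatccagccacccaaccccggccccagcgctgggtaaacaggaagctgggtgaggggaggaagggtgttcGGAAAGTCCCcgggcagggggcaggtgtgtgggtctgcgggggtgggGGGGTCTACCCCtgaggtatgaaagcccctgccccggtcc
Tnf had these letters on both strands of 1 stretch, 194 to 185 bases before the start. In Lta the matches covered bases 76 to 66 before the start, and in Ltb bases 87 to 78 and 40 to 29. The windows of Tnfrsf1a, Tnfrsf1b and Fas held the letters as well, so all 6 genes had them, against 45.8% of 32851 RefSeq windows of that length. The AP-1 letters TGANTCA, which 6.75% of windows held, were found in the window of Fas, 211 to 205 bases before the start, and in none of the other 5. The cAMP response element was searched as the exact letters TGACGTCA, which 1.55% of windows held and none of the 6 did. These are matches of letters and were not tested as binding sites, and sites that vary from the letters were not searched.

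The arrays were first checked against their labels. The signal of Arc lay between 9.21 and 9.62 (log2) on the 6 wildtype arrays and between 7.68 and 8.05 on the 6 knockout arrays. The groups did not overlap, yet in untreated cells the deleted gene itself did not pass the test (-1.48, SE 0.20, limma, adjusted p = 0.177, called in 3 of 27 other settings). It passed after LPS (-1.50, adjusted p = 0.00591; 0.0565 without LPS-treated wildtype replicate 1) and over both treatments (-1.49, adjusted p = 0.0015). Of 8 measured markers of conventional dendritic cells, all lay more than 1 log2 unit above the median of the unannotated probe sets in every group, with list means of 10.84 to 11.07. The same held for all 6 macrophage markers, with list means of 9.73 to 10.87, for all 5 inflammatory monocyte markers and, in untreated cells, for 7 of 8 neutrophil markers. Markers of B cells were not (0 of 7 in every group), 0 or 1 of 6 T cell markers was, and 3 of 8 natural killer cell markers were. Cd3e, a subunit of the T cell receptor complex, was at 5.50 to 6.18 and Cd79a, of the B cell receptor, at 5.93 to 6.42, close to the array medians of unannotated probe sets, 5.89 to 6.10. All 12 arrays are labelled male, but 3 (LPS-treated wildtype replicate 1 and both knockout replicates 2) had Y-linked signal at 8.83 to 9.24 and Xist at 5.63 to 5.76, while the other 9 had Y-linked signal at 3.99 to 4.58 and Xist at 11.22 to 11.92. On 4 arrays, replicates 2 and 3 of both LPS groups, the median of 78 small nucleolar RNA genes was 9.73 to 9.87, against 10.44 to 11.04 on the other 8. The untreated wildtype arrays were more alike than those of any other group: the SD of their pairwise differences over 6440 genes was 0.105 to 0.108, against 0.193 to 0.438 for the other 9 pairs within a group. They may not be separate cultures and were counted as 1 sample, their mean, in every test.

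Of the 6 genes, Tnf alone rose with LPS past the threshold, an adjusted p under 0.05, in wildtype and in knockout cells. In untreated wildtype cells its log2 signal was 8.69, 8.83 and 8.63 on the 3 arrays, and after LPS it was 12.88, 13.28 and 13.09. In untreated knockout cells it was 9.24, 9.42 and 8.39, and after LPS 12.56, 13.33 and 13.16. Every LPS-treated array of either genotype lay above every untreated array, with a gap of several log2 units. The untreated knockout arrays differed most among themselves, and replicate 3 had the lowest signal of all 12 arrays.

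In wildtype cells Tnf rose by 4.36 log2 units (SE 0.38, 95% interval 3.53 to 5.20, limma, adjusted p = 0.000319), which is 20.6-fold (11.5 to 36.7). In knockout cells it rose by 3.99 (SE 0.27, 3.40 to 4.59, adjusted p = 1.51e-05), which is 15.9-fold (10.6 to 24). It was higher on 3 of 3 LPS-treated arrays in each genotype. The wildtype comparison called 1.57% of all genes (349 of 22180), 1.34% as higher and 0.234% as lower, and the knockout comparison 5.91% (1311), 2.98% as higher and 2.93% as lower. Knockout arrays of the same replicate number deviated together. With replicate as a block among the 9 arrays of the groups other than untreated wildtype, the knockout count was 2312. The wildtype comparison rests on 1 counted untreated sample, and its count was 1917 with 12 separate samples.

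Leaving out the 4 arrays of low small RNA signal left replicate 1 alone in each LPS group, so spread between LPS-treated arrays could not be measured. In wildtype cells that array was compared with 1 counted untreated sample. The rise of Tnf was then 4.16 in wildtype and 3.54 in knockout cells. Without the 3 arrays of Y-linked signal it was 4.46 (adjusted p = 0.00209) and 4.04 (adjusted p = 0.000767). The median over all genes was -0.0053 in wildtype and -0.0037 in knockout cells.

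**Figure D1:**
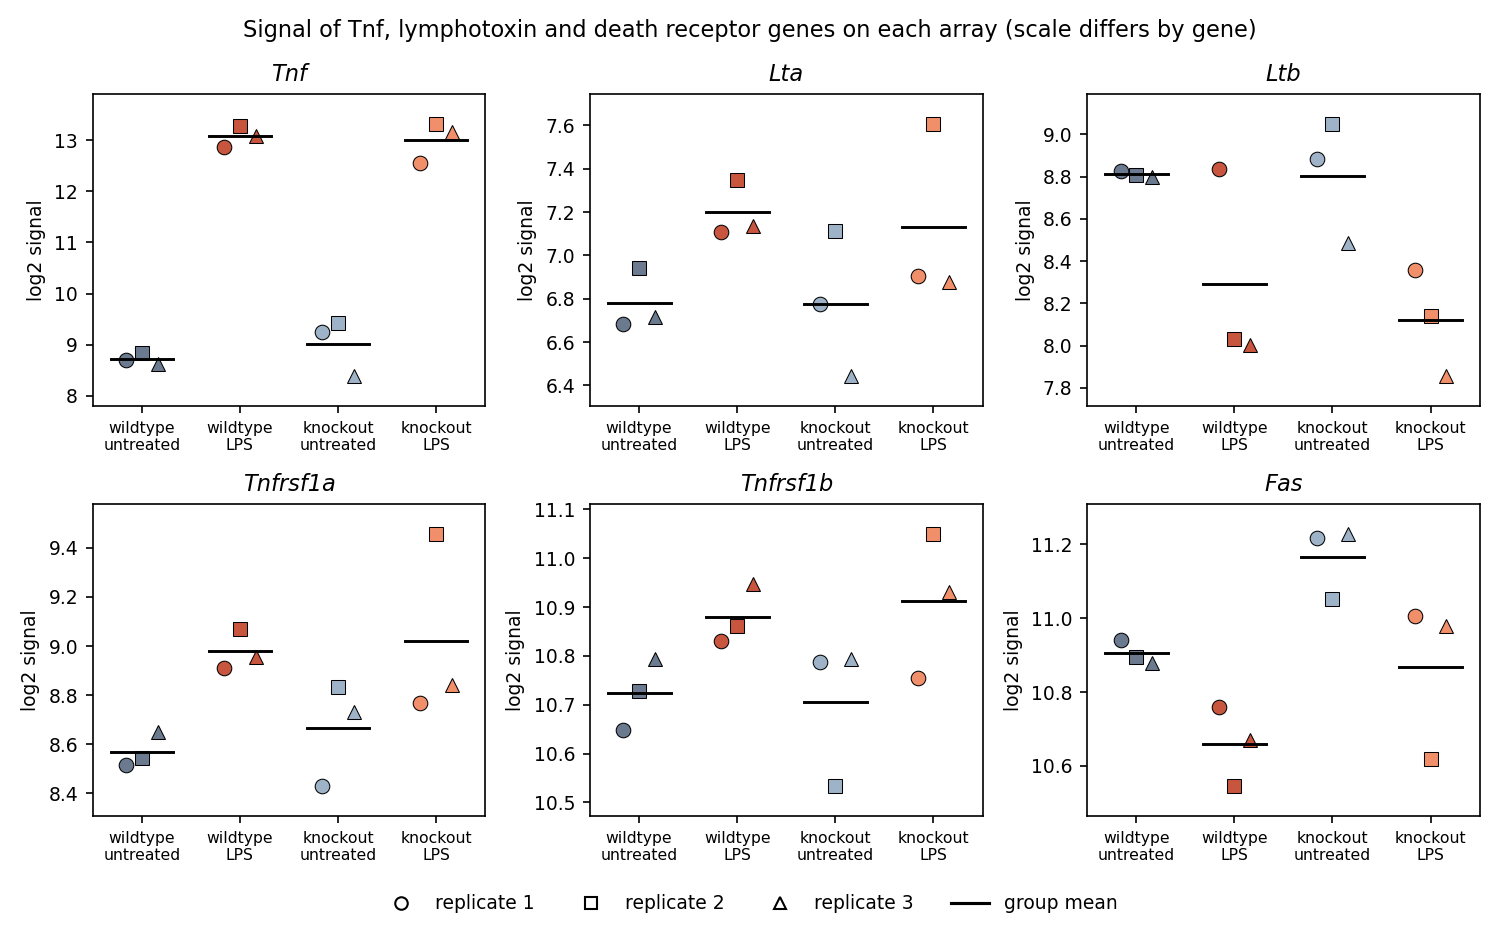
Log2 signal (y axis) of the 6 genes on each of 12 arrays, by group (x axis); symbols give the replicate number and lines the group mean, and each panel has its own scale. Tnf separates LPS-treated from untreated arrays in both genotypes, while LPS-treated wildtype replicate 1 stays at the untreated level of Ltb, at 8.84.

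Lta, the secreted lymphotoxin, had a low signal. Untreated wildtype arrays gave 6.68, 6.94 and 6.72 and LPS-treated ones 7.11, 7.35 and 7.14. Untreated knockout arrays gave 6.78, 7.11 and 6.44 and LPS-treated ones 6.91, 7.61 and 6.88. These values lie 0.52 to 1.72 above the median of unannotated probe sets on the same array, so part of the signal may be background and a change could be understated. The wildtype groups did not overlap, and the knockout groups did. The difference was 0.42 in wildtype (SE 0.30, -0.25 to 1.08, adjusted p = 0.807) and 0.35 in knockout cells (SE 0.21, -0.12 to 0.82, adjusted p = 0.393), and neither passed the test. The knockout value was 0.11 without LPS-treated knockout replicate 2 and 0.19 without untreated knockout replicate 3.

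Ltb, the membrane lymphotoxin, had lower values after LPS on most arrays. Untreated wildtype arrays lay at 8.83, 8.81 and 8.80, and LPS-treated ones at 8.84, 8.03 and 8.00. Untreated knockout arrays lay at 8.88, 9.05 and 8.48, and LPS-treated ones at 8.36, 8.14 and 7.86. The wildtype groups thus overlapped through LPS-treated replicate 1 alone, and the knockout groups did not overlap. The difference was -0.52 in wildtype cells (SE 0.33, -1.25 to 0.21, adjusted p = 0.739), and -0.79 without LPS-treated replicate 1. In knockout cells it was -0.69 (SE 0.23, -1.20 to -0.17, unadjusted p = 0.0136, adjusted p = 0.122). Neither passed the threshold.

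The call of Ltb in knockout cells changed with the fit, and it passed in 4 of 28 other settings (limma, adjusted p 0.0083 to 0.426). By replicate number, the LPS-treated knockout array was lower than the untreated one by 0.52, 0.91 and 0.63. As the knockout groups did not overlap, any pairing would give 3 of 3 lower, so the count adds nothing. With replicate as a block among 9 arrays, a setting chosen after seeing the data, the adjusted p was 0.0261. With the block among 12 samples, which counts the untreated wildtype arrays as 3, it was 0.0235, and with replicate as a random block 0.0583. Without LPS-treated wildtype replicate 1, which enters only through the shared spread, it was 0.0471.

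Ltb also moved with the small RNA signal of the arrays. The 4 arrays of low small RNA signal were the 4 with the lowest Ltb, at 7.86 to 8.14, and LPS-treated wildtype replicate 1, with high small RNA signal, had Ltb at 8.84. LPS-treated knockout replicate 1, also with high small RNA signal, had 8.36, below all 6 untreated arrays. Without the 4 arrays, which leaves replicate 1 alone in each LPS group, the LPS difference was 0.02 in wildtype cells and -0.45 in knockout cells. With a term for the 4 arrays it was -0.13 and -0.29 (adjusted p = 0.959 and 0.426). Lta, Tnfrsf1a, Tnfrsf1b and Fas also had smaller LPS differences without the 4 arrays. They were 0.33, 0.34, 0.11 and -0.15 in wildtype and 0.13, 0.11, 0.05 and -0.16 in knockout cells. The labels do not say what sets these 4 arrays apart, and its part in the values of Ltb and the others was not tested.

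**Figure D2:**
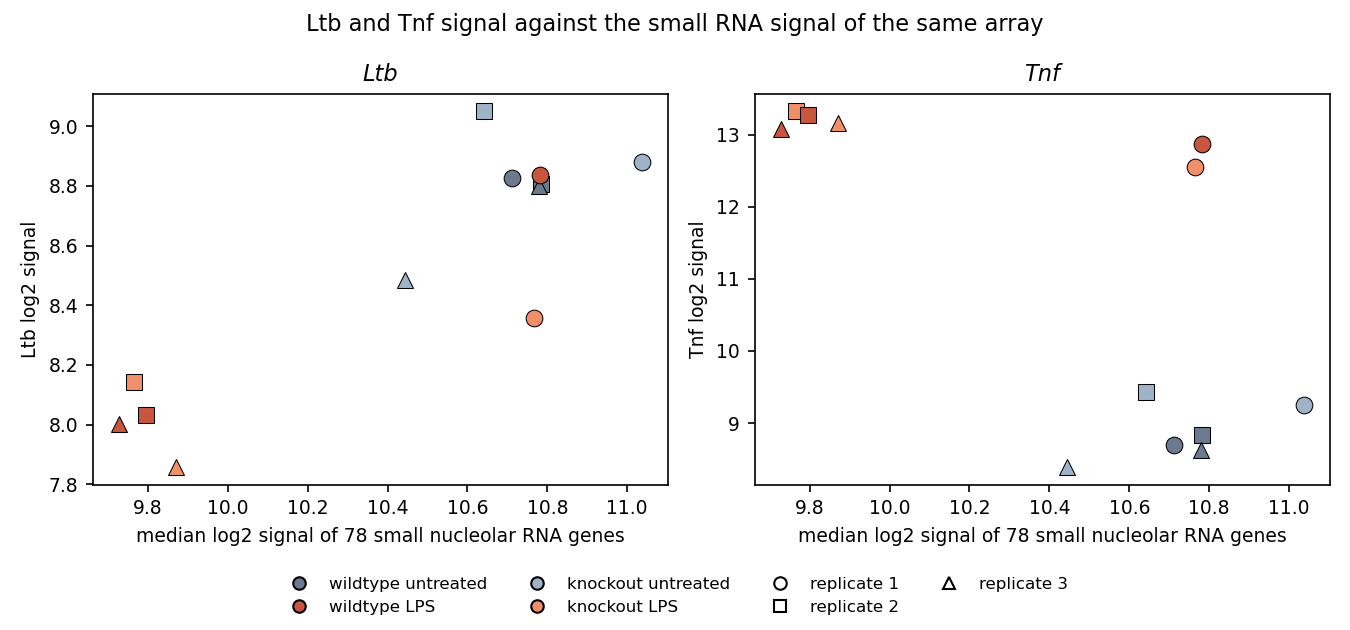
Log2 signal of Ltb and Tnf (y axes) on the 12 arrays against the median log2 signal of 78 small nucleolar RNA genes on the same array (x axis); colours give the group and symbols the replicate. The 4 LPS-treated arrays at 9.73 to 9.87 on the x axis have the lowest Ltb, while Tnf is high on all 6 LPS-treated arrays on either side of the gap.

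**Figure D3:**
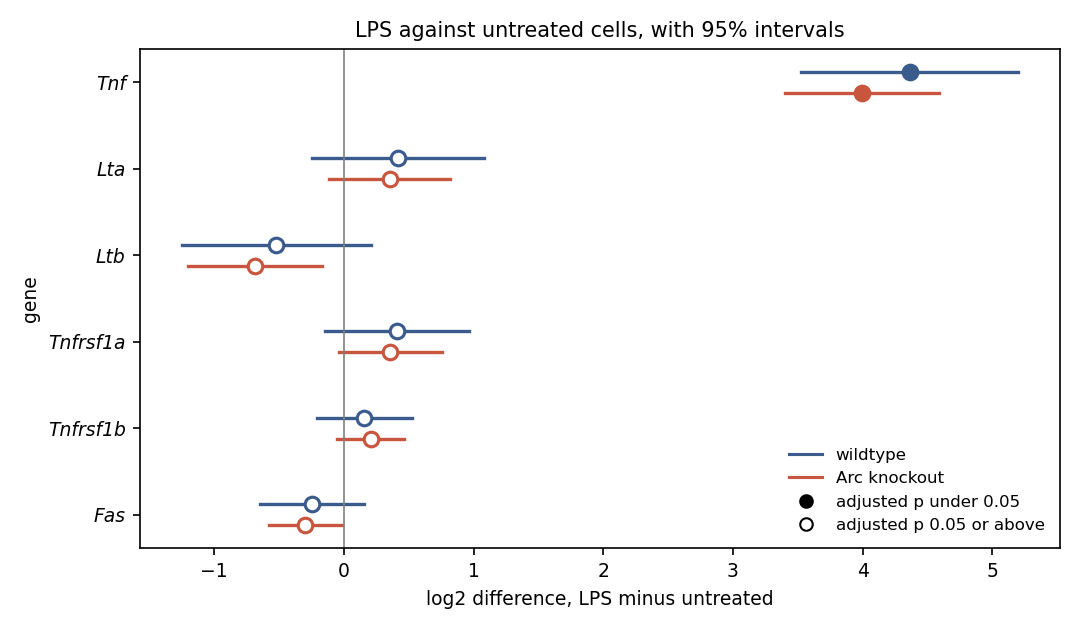
LPS minus untreated log2 difference (x axis) of the 6 genes in wildtype and knockout cells, with 95% intervals; filled points have an adjusted p under 0.05. The intervals of Tnf start at 3.53 and 3.40, and no other gene has a filled point.

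The receptors of TNF showed small differences of the same sign in both genotypes. Tnfrsf1a, TNF receptor 1, was at 8.52, 8.54 and 8.65 in untreated and 8.91, 9.07 and 8.96 in LPS-treated wildtype cells. In knockout cells it was at 8.43, 8.83 and 8.73 without and 8.77, 9.46 and 8.84 with LPS, where the groups overlapped. The difference was 0.41 in wildtype (SE 0.25, -0.15 to 0.97, adjusted p = 0.729) and 0.36 in knockout cells (SE 0.18, -0.04 to 0.75, adjusted p = 0.296). Without LPS-treated knockout replicate 2, the highest array, the knockout difference was 0.14.

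Tnfrsf1b, TNF receptor 2, had the narrowest range of the 6 genes over the 12 arrays. It was at 10.65, 10.73 and 10.79 in untreated and 10.83, 10.86 and 10.95 in LPS-treated wildtype cells. Knockout arrays gave 10.79, 10.53 and 10.79 without and 10.76, 11.05 and 10.93 with LPS. Again the groups were apart in wildtype and overlapped in knockout cells. The difference was 0.16 in wildtype (SE 0.17, -0.21 to 0.52, adjusted p = 0.928) and 0.21 in knockout cells (SE 0.12, -0.05 to 0.47, adjusted p = 0.361; 0.12 without untreated knockout replicate 2). The upper ends of these intervals leave room for a rise of at most 1.44-fold and 1.38-fold.

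Fas was lower after LPS on every array than on any untreated array of its genotype. It was at 10.94, 10.89 and 10.88 in untreated and 10.76, 10.55 and 10.67 in LPS-treated wildtype cells, and at 11.22, 11.05 and 11.23 in untreated and 11.01, 10.62 and 10.98 in LPS-treated knockout cells. The difference was -0.25 in wildtype (SE 0.18, -0.65 to 0.15, adjusted p = 0.814) and -0.30 in knockout cells (SE 0.13, -0.58 to -0.016, unadjusted p = 0.0405, adjusted p = 0.222). Neither passed the test, and without LPS-treated knockout replicate 2 the knockout difference was -0.17.

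Counted by overlap alone, 5 of 6 genes had LPS-treated and untreated wildtype arrays fully apart (Tnf, Lta, Tnfrsf1a and Tnfrsf1b higher, Fas lower), and 3 of 6 in knockout cells (Tnf higher, Ltb and Fas lower). The same held for 30.2% of all genes in wildtype and 25.1% in knockout cells. Overlap takes the untreated wildtype arrays as 3, though they lay closest together and may not be separate cultures. Between genotypes, 29.3% of all genes were apart in untreated cells and 7.78% after LPS. By the test, 1 of 6 was called in each genotype. In bulk RNA, fewer cells of a type and less RNA per cell cannot be told apart. Of the other myeloid markers, the mean of 8 neutrophil markers was 8.80 to 8.89 in untreated and 7.21 to 8.15 in LPS-treated wildtype cells, and 8.38 to 8.84 and 7.41 to 7.76 in knockout cells. Of these 8, 1 passed as lower in wildtype and 5 in knockout cells, with median LPS differences of -1.55 and -1.20. Over all genes, 0.234% in wildtype and 2.93% in knockout cells were called lower, and 1.34% and 2.98% higher. The mean of 5 inflammatory monocyte markers was 9.94 to 10.06 and 8.50 to 9.01 in wildtype and 9.65 to 9.92 and 8.27 to 8.85 in knockout cells, where 1 and 3 passed as lower. The mean of 6 macrophage markers was 10.77 to 10.79 and 10.30 to 10.58 in wildtype and 10.62 to 10.87 and 9.73 to 10.74 in knockout cells, where 0 and 1 passed as lower. The mean of 6 mast cell and basophil markers was 6.97 to 7.04 and 6.56 to 7.41 in wildtype and 6.84 to 7.09 and 6.72 to 7.32 in knockout cells, with 1 higher in knockout cells. Their part in the lower values of Ltb and Fas was not tested.

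None of the 6 genes differed between knockout and wildtype cells past the threshold, in untreated cells, after LPS or over both treatments. A comparison in which Arc did not pass without LPS can miss differences of that size and smaller. The 3 comparisons called 0.00451%, 0.00902% and 0.0135% of all genes (1, 2 and 3 genes). An unadjusted p under 0.05 in limma was reached by none of the 6, against 897, 877 and 732 of all 22180 genes. At so small a share, none among 6 genes says little about them. The LPS response did not differ by genotype past the threshold for any of the 6, where the interaction called 0% of all genes (0 of 22180, with 982 at an unadjusted p under 0.05).

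The intervals state how much difference remains possible. For Tnf, knockout minus wildtype was 0.30 without LPS (SE 0.38, -0.53 to 1.14, adjusted p = 0.970) and -0.07 after LPS (SE 0.27, -0.66 to 0.53, adjusted p = 0.999). The LPS response of Tnf was 0.37 lower in knockout than in wildtype cells (SE 0.46, interval of the difference -1.39 to 0.66, adjusted p = 0.948).

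For Fas, the 3 untreated knockout arrays, at 11.05 to 11.23, all lay above the 3 untreated wildtype arrays, at 10.88 to 10.94. These 2 groups were apart, in either direction, in 29.3% of all genes. After LPS the groups overlapped, as knockout replicate 2 (10.62) lay below wildtype replicates 1 and 3. Knockout minus wildtype was 0.26 without LPS (SE 0.18, -0.14 to 0.66), 0.21 after LPS (SE 0.13, -0.07 to 0.49) and 0.24 over both (SE 0.11, -0.0089 to 0.48, unadjusted p = 0.0575, adjusted p = 1.00). In order of mean level, the groups of Fas ran from LPS-treated wildtype (10.66) through LPS-treated knockout (10.87) and untreated wildtype (10.90) to untreated knockout cells (11.17).

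Lta, Ltb, Tnfrsf1a and Tnfrsf1b had genotype differences between -0.17 and 0.09 in all 3 genotype comparisons. The widest interval among them was that of Ltb without LPS, -0.73 to 0.72 around a difference of -0.0053. In all 4 genes the LPS-treated groups overlapped between genotypes, as did the untreated groups. The share of genes whose groups were apart after LPS was 7.78%.

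**Figure D4:**
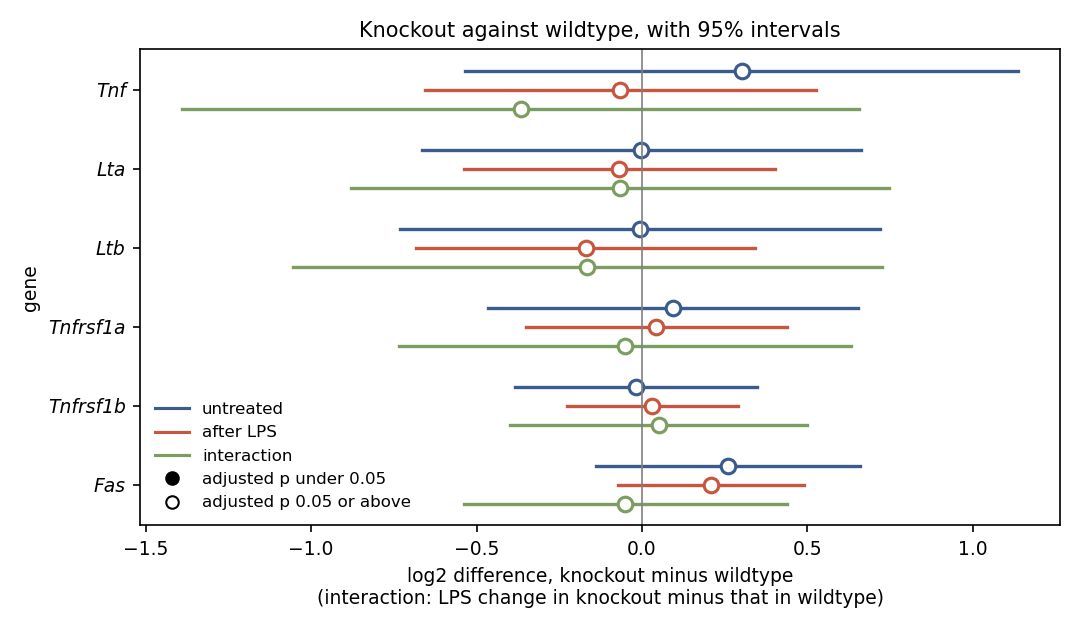
Log2 difference (x axis) of the 6 genes between knockout and wildtype cells without LPS and after LPS, and the interaction, with 95% intervals; open points have an adjusted p of 0.05 or above. All 18 points are open and all intervals include 0, with the estimates of Fas at 0.26 and 0.21 the closest to leaving it on the upper side.

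Around these genes, 7 lists of pathway genes were followed, of which 85 of 92 symbols were measured. In wildtype cells 10 of the 85 rose and none fell, and in knockout cells 15 rose and 4 fell. Over all genes, 1.34% were called higher and 0.234% lower in wildtype cells, and 2.98% and 2.93% in knockout cells, which is the background of every list count below. In the genotype comparisons and the interaction none of the 85 passed. None had an unadjusted p under 0.05 in limma, against 732 to 982 of all 22180 genes. Without the 4 arrays of low small RNA signal, which leaves 1 LPS-treated array per genotype, 5 of the 9 calls named by the rule were lost in wildtype and 9 of 17 in knockout cells, with no change of sign. Among the lost calls some values stayed as large, such as Eda2r (1.55 and 1.79 without the arrays) and Mapkapk2 (0.92 and 0.91) in wildtype and Tab1 (-0.54 and -0.58) in knockout cells, and others shrank, such as Rhbdf2 (0.92 and 0.58) in knockout cells. Zc3h12a, Tnfsf9, Cd70 and Cd40 still passed in both genotypes, and Tnfaip3, Cflar, Tia1 and Eda2r in knockout cells.

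Among the components and regulators of the TNF receptor 1 complex, 1 of 18 measured genes rose in wildtype cells, and 3 rose and 1 fell in knockout cells. The list median was 0.16 in wildtype and -0.0039 in knockout cells. Tnfaip3, which encodes the ubiquitin-editing enzyme A20 that restrains this complex, rose by 1.94 (SE 0.19, adjusted p = 0.000561) in wildtype and by 2.06 (SE 0.13, adjusted p = 1.28e-05) in knockout cells. Its signal lay at 10.32 to 10.47 in untreated and 12.28 to 12.42 in LPS-treated wildtype cells. Without the 4 low small RNA arrays the wildtype rise was 1.91, from 1 LPS-treated array. In knockout cells, Tnip1, a partner of A20, rose by 0.56 (adjusted p = 0.0233), Tab3 rose by 0.38 (adjusted p = 0.0485) and Tab1, another subunit of the TAK1 kinase complex, fell by 0.54 (adjusted p = 0.0151). None of these passed in wildtype cells, where the means without and with LPS moved the same way. They were 9.44 and 10.14 for Tnip1, 8.76 and 9.32 for Tab3, and 8.08 and 7.68 for Tab1. Leaving out 1 array ended the call of Tnip1 (untreated knockout replicate 1 or 2, or LPS-treated knockout replicate 3, adjusted p up to 0.105) and of Tab1 (untreated knockout replicate 2 or 3, or LPS-treated knockout replicate 3, up to 0.0716). The call of Tab3 was lost without any 1 of the 9 arrays outside the untreated wildtype group (adjusted p 0.0572 to 0.184).

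In the death pathway below the receptors, 1 of 9 measured genes rose in each genotype. It was Cflar, which encodes the caspase-8 inhibitor cFLIP, at 1.03 (SE 0.17, adjusted p = 0.0145) in wildtype and 1.07 (SE 0.12, adjusted p = 0.00056) in knockout cells. The wildtype call was lost without LPS-treated replicate 3 (0.98, adjusted p = 0.0503). The other 8, Fadd and Casp8 among them, did not pass, and the list median was 0.10 in wildtype and -0.13 in knockout cells.

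Of 6 measured genes of the lymphotoxin beta receptor and the non-canonical NF-kB pathway none passed in limma. An unadjusted p under 0.05 was found for 1 in wildtype and 4 in knockout cells, against 2199 and 4493 of all 22180 genes. Of the 6, Nfkb2, the precursor of p52, had the smallest p. Its differences were 0.54 in wildtype (adjusted p = 0.163) and 0.42 in knockout cells (adjusted p = 0.0550). Nfkb2 passed in 3 of 27 other settings in wildtype and 9 of 28 in knockout cells, where the adjusted p was 0.0228 with replicate as a block among 9 arrays. The list medians were 0.03 and 0.07.

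Of 11 proteins that act on the stability or translation of Tnf mRNA, 2 genes rose in wildtype cells, and 3 rose and 1 fell in knockout cells. The list medians were 0.32 and 0.08. Zc3h12a, which encodes the endonuclease Regnase-1, rose by 1.53 (SE 0.17, adjusted p = 0.00151) in wildtype and 1.42 (SE 0.12, adjusted p = 9.61e-05) in knockout cells. Mapkapk2, the kinase that inactivates tristetraprolin, rose by 0.92 (adjusted p = 0.0169) and 0.68 (adjusted p = 0.00523). The wildtype call of Mapkapk2 was lost without LPS-treated replicate 3 (0.93, adjusted p = 0.0503). In knockout cells Zfp36, which encodes tristetraprolin, rose by 0.59 (adjusted p = 0.0168) and Tia1, a translational repressor, fell by 0.82 (adjusted p = 0.00478). Neither passed in wildtype cells, where the means without and with LPS were 11.28 and 11.94 for Zfp36 and 8.77 and 8.16 for Tia1. The call of Zfp36 was lost without untreated knockout replicate 1 or 2 or LPS-treated knockout replicate 3 (adjusted p 0.0600 to 0.0704).

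Of 6 genes for the release of TNF and its receptors from the membrane, Adam17 among them, none passed in wildtype and 1 rose in knockout cells. It was Rhbdf2, encoding the iRhom2 protein that ADAM17 needs to reach the surface, at 0.92 (SE 0.17, adjusted p = 0.0104). In wildtype cells its difference was 1.05 (SE 0.24, adjusted p = 0.0690), which passed in 9 of 27 other settings, and its interaction of genotype and LPS did not pass. Without LPS-treated knockout replicate 3 the knockout difference was 0.88 (adjusted p = 0.0537).

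Of 13 other measured ligands of the TNF family, 4 rose in wildtype and 5 in knockout cells, and none fell. The list medians were 0.18 and 0.36. Tnfsf9, the ligand 4-1BBL of activated T cells, rose by 3.56 (SE 0.20, adjusted p = 3.26e-05) in wildtype and by 3.71 (SE 0.14, adjusted p = 5.66e-07) in knockout cells. Its signal was 7.09 to 7.80 in untreated and 10.90 to 11.20 in LPS-treated wildtype cells, and 7.24 to 7.72 and 11.11 to 11.36 in knockout cells. Cd70, the ligand of CD27, rose by 1.95 (SE 0.31) and 1.71 (SE 0.22), and Tnfsf15, the ligand TL1A, by 1.79 (SE 0.36) and 1.77 (SE 0.25). Untreated Cd70 lay at 5.27 to 5.68 in wildtype and 5.64 to 6.15 in knockout cells. The array medians of unannotated probe sets were 5.89 to 6.10, so the rise of Cd70 started close to background. The wildtype call of Tnfsf15 (adjusted p = 0.0368) was lost without any 1 of the 3 LPS-treated wildtype arrays, or without untreated knockout replicate 3 (adjusted p 0.0653 to 0.0883). Chosen after their values were seen, Tnfsf4, the ligand of OX40, rose by 1.13 and 1.07 and Tnfsf18 rose in knockout cells by 0.93. Fasl, the ligand of Fas, passed in neither.

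Of 25 other receptors of the family, 2 rose in wildtype cells, and 2 rose and 2 fell in knockout cells. The list medians were -0.04 and -0.00059. Cd40, the receptor through which T cells activate dendritic cells, rose by 2.13 (SE 0.19, adjusted p = 0.000402) in wildtype and 2.31 (SE 0.14, adjusted p = 8.58e-06) in knockout cells. Its signal was 9.40 to 9.50 in untreated and 11.45 to 11.84 in LPS-treated wildtype cells. Eda2r, a receptor of ectodysplasin, rose by 1.55 (adjusted p = 0.0392) and 1.12 (adjusted p = 0.0145). Its untreated signal, 6.24 to 6.58 in wildtype and 6.62 to 7.10 in knockout cells, was also near background. Its wildtype call was lost without LPS-treated wildtype replicate 1 or 2, untreated knockout replicate 1 or 3, or LPS-treated knockout replicate 3 (adjusted p 0.0523 to 0.0963), and its knockout call without untreated knockout replicate 1 or 3 (adjusted p 0.0522 to 0.0687). In knockout cells Relt fell by 0.81 (adjusted p = 0.00329) and Tnfrsf4, the receptor OX40, by 0.57 (adjusted p = 0.0363). Neither passed in wildtype cells, where the means without and with LPS were 9.22 and 8.70 for Relt and 8.88 and 8.45 for Tnfrsf4. The call of Tnfrsf4 was lost without any 1 untreated knockout array, or LPS-treated knockout replicate 1 or 2 (adjusted p 0.0723 to 0.129).

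Of the measured neighbours of Tnf followed here, none rose past the threshold. Of the 10 nearest measured genes on both sides of the cluster of Ltb, Tnf and Lta, none passed in wildtype cells, with LPS differences of -0.55 to 0.12. In knockout cells the differences were -0.63 to 0.12, and 1 gene passed. It was Lst1, a myeloid gene next to Ltb, which fell by 0.63 (SE 0.14, adjusted p = 0.0226). In wildtype cells the difference of Lst1 was -0.55 (SE 0.20, limma, unadjusted p = 0.0175, adjusted p = 0.303). It was the only 1 of the 10 with an unadjusted p under 0.05 there, against 2199 of all 22180 genes. The knockout call was lost without untreated knockout replicate 1 or 3, or LPS-treated knockout replicate 1 or 3 (adjusted p 0.0620 to 0.0906). H2-Q1 and H2-Q4, at the far end, have near-identical copies that a probe set may not tell apart.

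**Figure D5:**
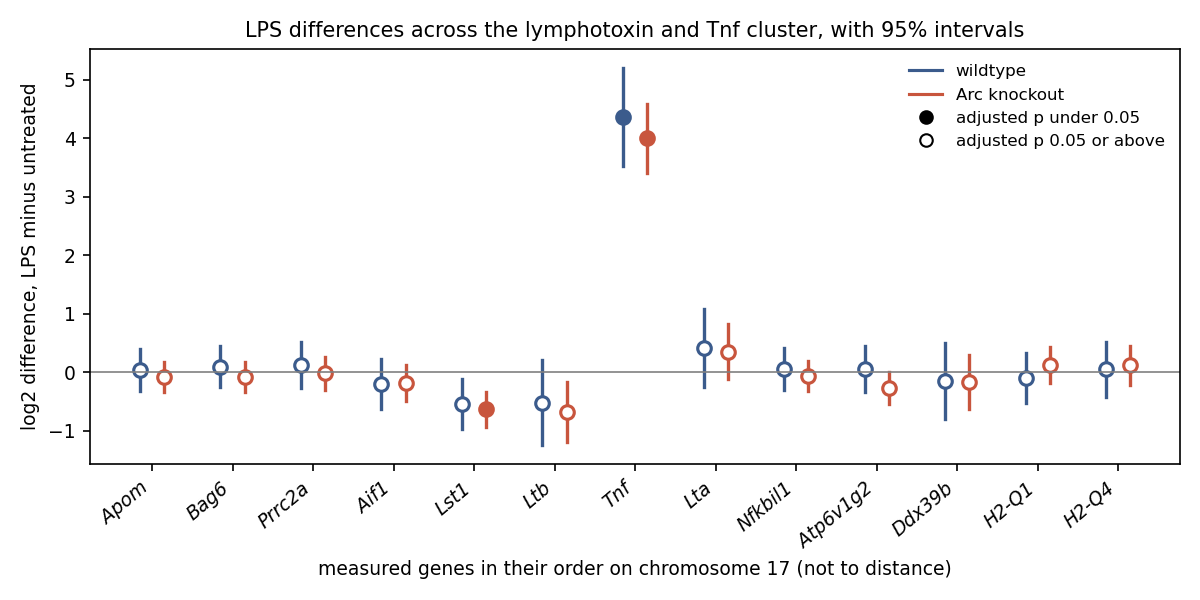
LPS minus untreated log2 difference (y axis) with 95% intervals of 13 measured genes in their order on chromosome 17 (x axis, not to distance), in wildtype and knockout cells; filled points have an adjusted p under 0.05. Tnf is at 4.36 and 3.99, its direct neighbours Lta and Ltb lie between -0.69 and 0.42, and Lst1 in knockout cells is the only other filled point.

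Across the 10 counted samples, the genes most like each of the 6 were named by Pearson's r among 11089 genes above the median mean signal. The samples share the 4 treatment groups, so these values are a description. Tnf was most like Ccl3, an inflammatory chemokine (0.999), Serpinb2 (0.996) and Rasgef1b (0.996). Ltb was most like Timm8b (0.982), Atp5e (0.979) and Tmem256 (0.977), of which Timm8b and Atp5e encode mitochondrial proteins. Lta was most like Ppa1 (0.972), Tnfrsf1a like Mir9-3hg (0.980), Tnfrsf1b like Kdm7a (0.938) and Fas like Cop1 (0.962). None of the 6 was among the 3 genes most like another. Between them, r was highest for Lta and Tnfrsf1a (0.842) and lowest for Lta and Fas (-0.841), and Tnf had 0.698 with Lta and -0.712 with Ltb.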

How the data were processed

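RNA of 12 samples was labelled and hybridised to Affymetrix whole-transcript arrays, per the labels' protocols. The deposited values are log2 signals, 1 for each probe set on each array, that the authors had normalized. How background was corrected and arrays were normalized was not given in the sources used here, and the submitters' processing notes list no tool but limma. The platform annotation names 1 gene for 23521 of 34390 probe sets, several for 1814 and none for 9055. Several probe sets of a gene were reduced to the one with the highest mean, which left 22180 genes. The number of arrays limits the precision.

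All genes were tested with limma 3.58.1 in R 4.3.3 (1 mean per group, 6 contrasts, two-sided eBayes). P-values were adjusted over all genes by Benjamini-Hochberg, with a threshold of 0.05. The mean of the 3 untreated wildtype arrays was 1 sample, assumed to vary like the others, which gave 10 samples. A gene called "apart" had no overlap between arrays of the groups. The code was tested on simulated data.

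The 6 genes, the lists and their markers were chosen with earlier results of these data known. Named beside them were Arc, up to 3 genes per list, LPS comparison and direction past the threshold (else the 1 with the smallest p), the 3 most alike genes, and 5 measured neighbours per side. Listed symbols without a probe set of their own in the table used were not analysed here.

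Same-numbered arrays deviated together between untreated and LPS-treated knockout cells (correlation of residuals 0.196 to 0.381) and between both LPS groups (0.228 to 0.358). The same held for LPS-treated wildtype with untreated knockout cells (0.145 to 0.196). For untreated wildtype arrays with the others the values were -0.053 to 0.113. The labels do not say that equal numbers mark a pair. Low small RNA signal was on replicates 2 and 3 of both LPS groups. Y-linked signal was on LPS-treated wildtype replicate 1 but on both knockout replicates 2. What the correlations come from was not tested. Beside the fit described, 28 settings were run, 1 of them (a block among the 9 arrays) chosen after seeing the data.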

Additional observations from a re-analysis of the deposited data

How the results depend on the processing

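The rise of Tnf with LPS passed in 27 of 27 settings in wildtype (4.03 to 4.46) and 28 of 28 in knockout cells (3.54 to 4.22). The setting without the low small RNA arrays had 1 LPS-treated array per genotype, so its call rests on no spread between LPS-treated arrays. In wildtype cells the number of the 6 genes past the threshold was 1 in all 27. In knockout cells it was 2, through Ltb, with the replicate block among 9 arrays, with 12 samples and the replicate block, with array weights (Ltb -0.85, adjusted p = 0.0083) and without LPS-treated wildtype replicate 1; leaving out 1 array at a time gave 1 to 2. In the genotype comparisons and the interaction it was 0 in every setting that could be run. Among 972 values of the 6 genes, 67 had the other sign, all of them uncalled. Apart from Ltb in knockout cells, the replicate block changed no call of the 6 genes.

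Counts over all genes moved more. The wildtype LPS count of 349 ranged from 76 (without the 4 low small RNA arrays) to 2437 (12 samples with the replicate block). It was 196 with only the groups compared, 2297 with array weights, 231 without LPS-treated knockout replicate 3 and 184 without LPS-treated wildtype replicate 3. The knockout LPS count of 1311 ranged from 562 (without low small RNA arrays) to 4698 (array weights). It was 2021 with 12 samples, 2539 with the replicate block added, 2055 with a random block, 657 to 764 without 1 untreated knockout array and 615 without LPS-treated knockout replicate 3. Genotype counts of 1, 2 and 3 reached 257, 15 and 39, and the interaction 280, each with array weights. With 12 samples the untreated genotype count was 97 and the interaction 55, and without LPS-treated knockout replicate 2 the interaction was 35. The causes were not tested. Signal close to background limits Lta, Cd70 and Eda2r.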
